A study of Arabidopsis thaliana with 24 samples.

Results

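The expansins and expansin-like genes described here are 10 loci of the Arabidopsis array, listed by locus number out of 32627 genes. The rule applies no threshold to a measured value, but the list was drawn up with earlier results of these data known, so the shares of all genes given below are a background and not a test. They comprise 6 α-expansins (EXPA1, AT1G69530; EXPA5, AT3G29030; EXPA8, AT2G40610; EXPA10, AT1G26770; EXPA11, AT1G20190; EXPA15, AT2G03090), 1 β-expansin (EXPB3, AT4G28250) and 3 members of expansin-like family A (EXLA1, AT3G45970; EXLA2, AT4G38400; EXLA3, AT3G45960). All 10 were measured on every one of the 24 arrays and none was removed by a filter. The study followed detached rosette leaves in darkness to ask how ethylene and cytokinin signalling shape leaf senescence. Leaves 3 and 4 of 21-day-old plants grown with 16 h of light and 8 h of dark were detached 12 days after emergence and floated on 3 mM MES buffer without light for 0, 1, 2 or 3 days (days after treatment, DAT). Genotypes were ein2/ore3, an ethylene-insensitive mutant (allele ein2-44/ore3-1), ahk3/ore12, with a gain-of-function form of the cytokinin receptor AHK3 (allele ore12-1), and Col, the wild type. Each mutant was a single allele, and each of the 12 combinations of genotype and day had 2 arrays, called replicates 1 and 2, which sets how precisely any value below is known, since arrays are few.

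Expansins are secreted wall proteins that let cellulose microfibrils slide past the polymers around them at acid pH, without cutting any bond. α-Expansins have long been tied to acid growth, in which auxin-driven proton pumping loosens the wall of an enlarging cell, and β-expansins form a related branch. Expansin-like A proteins share the domain structure of expansins, but no wall-loosening activity has been established for them, and EXLA genes are better known from responses to stress and pathogens. Dark-held leaves enter senescence, in which chloroplasts are dismantled and nutrients are exported.

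Levels are given as log2 of the summed normalized intensities of a gene's transcript variants, and a difference of 1 is a doubling. Changes and differences between genotypes came from 1 limma fit of the 12 group means to all 24 arrays, and calls used Benjamini-Hochberg adjusted p under 0.05 over all genes. The median log2 level per array was 9.02 to 9.16 on 23 arrays and 8.91 on the ein2/ore3 array at 2 DAT, replicate 2, and the replicates of a condition correlated at r = 0.965 to 0.995 over genes. The leaf label was checked against marker genes. The log2 of the summed intensities of 4 mesophyll genes at 0 DAT was 17.48 to 17.53 in ein2/ore3, 17.50 to 17.51 in ahk3/ore12 and 17.50 to 17.56 in Col. The other marker sums below were formed in the same way, and the brightest genes weigh most in them. Of 4 root hair and flower genes, AP3 stayed at or below the 5.51st percentile of an array and RHD6 at or below the 17.8th, while AG reached the 30.6th and COBL9 lay between the 44.3rd and the 55.6th, and their sum was 9.05 to 9.88. That mesophyll sum was lower at 3 DAT, at 15.95 to 15.96 in ein2/ore3, 15.89 to 15.98 in ahk3/ore12 and 14.67 to 14.77 in Col. The sum of 6 guard cell genes lay between 12.04 and 12.93 on all arrays. At 0 DAT it was 12.52 to 12.54 in ein2/ore3, 12.73 to 12.79 in ahk3/ore12 and 12.86 to 12.93 in Col. The ein2/ore3 arrays were below the Col arrays in this sum on each day, and the ahk3/ore12 arrays until 3 DAT, when they overlapped with Col. Of these 6, limma called 0 lower than at 0 DAT in ein2/ore3 at 3 DAT (3 at an unadjusted p under 0.05: MYB60, KAT1 and SLAC1), 2 in ahk3/ore12 (MYB60 by -0.74 and SLAC1 by -0.83) and 3 in Col (MYB60 by -0.94, KAT2 by -0.98 and SLAC1 by -0.70). The shares of all genes called lower were 14.6%, 13.9% and 19.3% in that order of genotypes, and no share is given for the unadjusted count. Between genotypes at 3 DAT, KAT1 was lower in ein2/ore3 than in Col (-0.77, adjusted p = 0.00443) and SLAC1 was lower in ahk3/ore12 than in Col (-0.44, adjusted p = 0.0464). In such whole-leaf RNA, fewer cells of a type and less RNA per cell cannot be told apart, and the part of these shifts in the results below was not tested. Levels of different genes are not set against each other, because probes differ in brightness.

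Darkness, detachment, floating and time cannot be told apart here, because no leaf of 1, 2 or 3 DAT was kept in light or on the plant. Every α-expansin of the set fell over the days in darkness in all 3 genotypes. At 3 DAT, all 6 had fallen against 0 DAT in each genotype, where the shares of all genes called lower were 14.6% in ein2/ore3, 13.9% in ahk3/ore12 and 19.3% in Col. The median log2 change of the 6 genes at 3 DAT was -3.15 in ein2/ore3, -4.35 in ahk3/ore12 and -5.35 in Col, beside medians over all genes of 0.02, -0.06 and 0.14 in that order of genotypes. For the 3 expansin-like genes the median changes at 3 DAT were positive, at 0.73 in ein2/ore3, 0.16 in ahk3/ore12 and 0.74 in Col. In Col, 8 of the 10 members passed the moderated F-test over the 4 days at an adjusted p under 0.01, against 15.9% of all genes, and the other two, EXLA2 (adjusted p = 0.2) and EXLA3 (adjusted p = 0.164), did not. The EXPA10 and EXLA1 calls were each lost in 6 of 8 fits with 1 Col array left out and that of EXPA15 in 2 of 8, and the count was 5 without either Col array of 0 DAT and 5 in the methods' test without moderation.

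**Figure D1:**
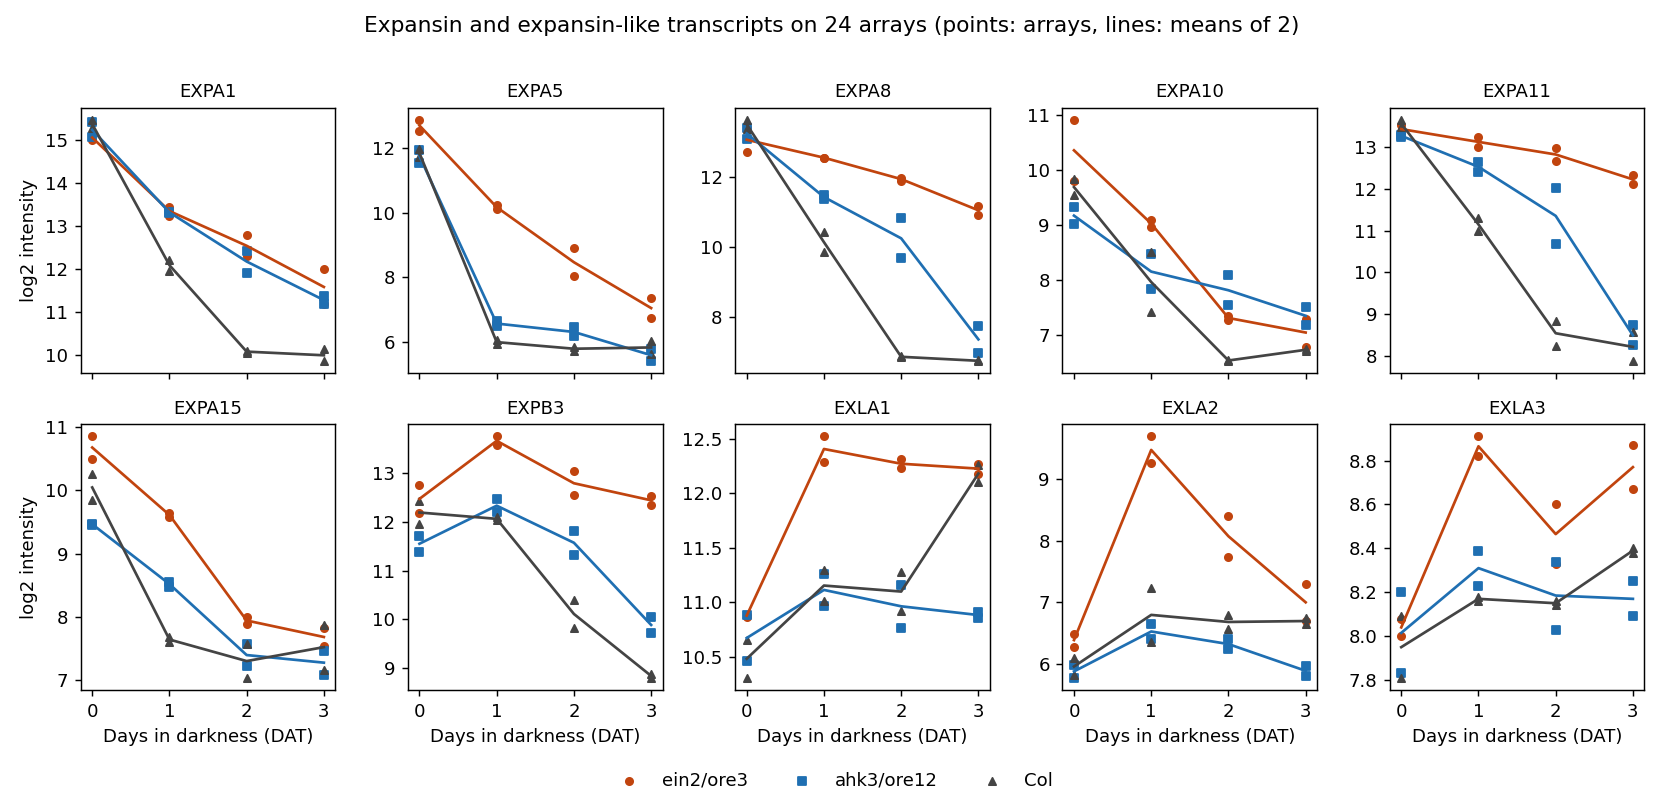
Log2 intensity (y axis, a separate scale for each gene) of the 10 expansin and expansin-like genes against days in darkness (x axis) on 24 arrays. Points are single arrays (circles ein2/ore3, squares ahk3/ore12, triangles Col) and lines join means of 2 arrays; the α-expansins decline with time in each genotype, and the expansin-like genes do not; EXPA1 in Col is at 9.86 and 10.14 at 3 DAT, against 15.46 and 15.27 at 0 DAT.

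EXPA1, an α-expansin studied for its part in the movement of stomata, was lower than at 0 DAT on each dark day in every genotype. In ein2/ore3 its log2 levels in replicates 1 and 2 were 15.11 and 14.99 at 0 DAT, 13.24 and 13.45 at 1 DAT, 12.78 and 12.30 at 2 DAT, and 11.99 and 11.18 at 3 DAT. The ahk3/ore12 levels were 15.40 and 15.06 at 0 DAT, 13.31 and 13.32 at 1 DAT, 11.92 and 12.43 at 2 DAT, and 11.19 and 11.37 at 3 DAT. The Col levels were 15.46 and 15.27 at 0 DAT, 12.22 and 11.96 at 1 DAT, 10.11 and 10.06 at 2 DAT, and 9.86 and 10.14 at 3 DAT. From 1 DAT on, both arrays of either mutant lay above both Col arrays of that day, while before the dark treatment the ein2/ore3 arrays lay below both Col arrays and the ahk3/ore12 arrays overlapped with them. The log2 change at 3 DAT was -3.46 in ein2/ore3, -3.95 in ahk3/ore12 and -5.37 in Col (SE 0.242 each), which is 11-, 15.4- and 41.3-fold in that order. Its 3 transcript variants on the array moved almost alike, with Col changes at 3 DAT of -5.24, -5.39 and -5.53.

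EXPA5, an α-expansin linked to brassinosteroid-dependent growth, showed most of its measured fall in Col and ahk3/ore12 after a single day. Its log2 levels in ein2/ore3 were 12.88 and 12.53 at 0 DAT, 10.11 and 10.24 at 1 DAT, 8.91 and 8.03 at 2 DAT, and 7.37 and 6.73 at 3 DAT. The ahk3/ore12 arrays gave 11.55 and 11.96 at 0 DAT, 6.66 and 6.48 at 1 DAT, 6.17 and 6.45 at 2 DAT, and 5.40 and 5.78 at 3 DAT. The Col arrays gave 11.73 and 11.97 at 0 DAT, 6.05 and 5.94 at 1 DAT, 5.85 and 5.73 at 2 DAT, and 6.03 and 5.63 at 3 DAT. The ein2/ore3 arrays were the highest on each of the 4 days and did not overlap with either other genotype. At 1 DAT the log2 change was -2.53 in ein2/ore3, -5.19 in ahk3/ore12 and -5.86 in Col (SE 0.272 each). In Col, EXPA5 stood between the 6.5th and the 13.5th percentile of its arrays from 1 DAT on, and in ahk3/ore12 between the 4.4th and the 21.0th. These levels are at the dim end of the scale, so the sizes of its falls and of its differences from Col may be understated. A further fall after 1 DAT could therefore be missed.

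EXPA8 and EXPA11 had the smallest α-expansin changes of ein2/ore3 at 3 DAT. For EXPA8, the ein2/ore3 log2 levels were 13.43 and 12.73 at 0 DAT, 12.57 and 12.56 at 1 DAT, 11.91 and 11.99 at 2 DAT, and 11.18 and 10.93 at 3 DAT. The ahk3/ore12 levels of EXPA8 were 13.42 and 13.10, 11.39 and 11.48, 9.68 and 10.82, and 6.96 and 7.74 over the same 4 days. The Col levels of EXPA8 were 13.65 and 13.39, 9.86 and 10.42, 6.84 and 6.86, and 6.75 and 6.72. The genotypes overlapped at 0 DAT and were fully separated at 1, 2 and 3 DAT in the order ein2/ore3, ahk3/ore12, Col. The log2 change of EXPA8 at 3 DAT was -2.02 in ein2/ore3, -5.91 in ahk3/ore12 and -6.78 ± 0.326 (SE) in Col (110-fold). Its Col arrays stood at the 20.8th to 23.2nd percentile at 2 and 3 DAT, so the size of its fall there may also be understated.

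For EXPA11, the log2 levels in ein2/ore3 were 13.51 and 13.33 at 0 DAT, 13.0 and 13.23 at 1 DAT, 12.96 and 12.67 at 2 DAT, and 12.33 and 12.11 at 3 DAT. The ahk3/ore12 arrays gave EXPA11 levels of 13.24 and 13.28, 12.64 and 12.40, 10.69 and 12.01, and 8.26 and 8.74 over the 4 days. The Col arrays gave EXPA11 levels of 13.64 and 13.46, 10.99 and 11.30, 8.85 and 8.25, and 8.57 and 7.88. The mutants were above Col at 1 and 2 DAT without overlap, and by 3 DAT the ahk3/ore12 arrays overlapped with the Col arrays while the ein2/ore3 arrays did not. The log2 change at 3 DAT was -1.20 ± 0.341 (SE) in ein2/ore3 (adjusted p = 0.0126), -4.76 in ahk3/ore12 and -5.33 in Col. The ein2/ore3 fall is the one α-expansin change between 0 and 3 DAT whose call was lost when an array was left out, with adjusted p = 0.0765 without ein2/ore3 0 DAT replicate 1 and 0.0784 without ein2/ore3 3 DAT replicate 2.

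EXPA10, which controls leaf and petiole growth, and EXPA15 had the smallest α-expansin changes of Col at 3 DAT. EXPA10 had ein2/ore3 log2 levels of 9.81 and 10.92 at 0 DAT, 8.96 and 9.10 at 1 DAT, 7.35 and 7.27 at 2 DAT, and 7.30 and 6.79 at 3 DAT. Its ahk3/ore12 levels were 9.02 and 9.33, 8.47 and 7.84, 7.54 and 8.09, and 7.51 and 7.19, and its Col levels were 9.84 and 9.55, 8.52 and 7.41, 6.52 and 6.55, and 6.71 and 6.75. The replicates of EXPA10 lay up to 1.11 apart, and its Col arrays at 1 DAT lay on either side of both ahk3/ore12 arrays of that day. The log2 change at 3 DAT was -3.32 in ein2/ore3, -1.83 in ahk3/ore12 and -2.96 in Col (SE 0.366 each), and the ein2/ore3 value was -2.51 on the slide of replicate 1 and -4.12 on that of replicate 2. Slides were inferred from image headers, by which each held 1 replicate of every condition, and the sample labels do not name them. Transcript variant 2 of EXPA10 moved more than variant 1, by -3.48 against -2.19 at 3 DAT in Col. Variant 1 averaged 7.93 and variant 2 averaged 9.19 in Col at 0 DAT. Both were at a like dim level at 3 DAT, 5.74 and 5.72, so the size of either fall may be understated.

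EXPA15 had ein2/ore3 log2 levels of 10.85 and 10.50 at 0 DAT, 9.58 and 9.64 at 1 DAT, 8.00 and 7.89 at 2 DAT, and 7.55 and 7.82 at 3 DAT. Its ahk3/ore12 levels were 9.47 and 9.46, 8.48 and 8.56, 7.23 and 7.57, and 7.09 and 7.47, and its Col levels were 10.25 and 9.84, 7.68 and 7.61, 7.04 and 7.57, and 7.88 and 7.17. Its 3 genotypes did not overlap at 0 DAT, in the order ein2/ore3, Col, ahk3/ore12, although neither mutant was called different from Col. They did not overlap at 1 DAT either, in the order ein2/ore3, ahk3/ore12, Col. At 3 DAT the Col arrays overlapped with those of both mutants. At 1 DAT the log2 change was -1.07 in ein2/ore3, -0.94 in ahk3/ore12 and -2.40 in Col (SE 0.234 each), and at 3 DAT it was -2.99, -2.18 and -2.52 in the same order of genotypes.

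EXPB3, the β-expansin, was not called lower in any genotype after a day in darkness. The ein2/ore3 log2 levels were 12.75 and 12.19 at 0 DAT, 13.75 and 13.57 at 1 DAT, 13.04 and 12.54 at 2 DAT, and 12.53 and 12.35 at 3 DAT. The ahk3/ore12 levels were 11.39 and 11.71, 12.20 and 12.46, 11.32 and 11.82, and 9.72 and 10.05. The Col levels were 12.42 and 11.96, 12.03 and 12.09, 10.40 and 9.82, and 8.88 and 8.80. Both mutants were above Col on every array from 1 DAT on, and at 0 DAT both ahk3/ore12 arrays were below both Col arrays. EXPB3 rose at 1 DAT by 1.19 ± 0.252 (SE) in ein2/ore3 (adjusted p = 0.00254) and by 0.79 in ahk3/ore12 (adjusted p = 0.031, lost without ahk3/ore12 0 DAT replicate 1 or either ahk3/ore12 array of 1 DAT, adjusted p = 0.0592 to 0.223), whereas the Col change was -0.13 (adjusted p = 0.779). At 3 DAT the change was -0.03 in ein2/ore3 (adjusted p = 0.952), and EXPB3 had fallen by 1.66 in ahk3/ore12 and by 3.35 in Col.

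The 2 annotated transcript variants of EXPB3, each read by 3 probes, diverged as its level declined. Variant 1 had mean log2 levels at 0, 1, 2 and 3 DAT of 11.68, 12.82, 11.98 and 11.64 in ein2/ore3, of 10.70, 11.58, 10.72 and 8.66 in ahk3/ore12, and of 11.38, 11.27, 8.66 and 5.78 in Col. For variant 2 the means over those days were 11.22, 12.47, 11.57 and 11.21 in ein2/ore3 leaves, 10.37, 11.03, 10.39 and 9.07 in ahk3/ore12 leaves, and 10.97, 10.82, 9.43 and 8.66 in Col leaves. The change at 3 DAT was thus -0.04 for variant 1 and -0.02 for variant 2 in ein2/ore3, while ahk3/ore12 gave -2.04 and -1.30 and Col gave -5.60 and -2.31. The size of the EXPB3 fall in Col and ahk3/ore12 therefore depends on which variant is read, and the direction does not. At 5.78, variant 1 in Col at 3 DAT was at the dim end of the scale, so the size of its fall there may be understated.

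**Figure D2:**
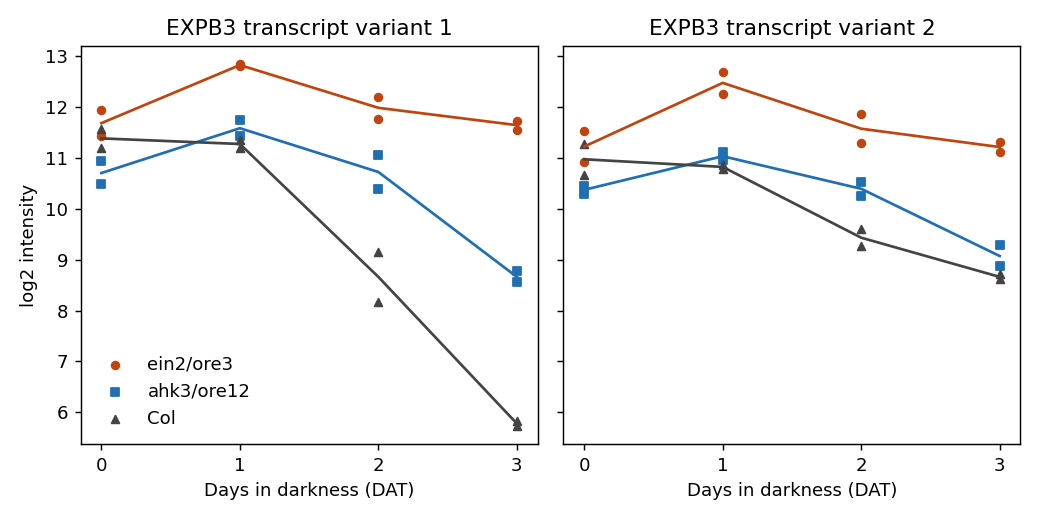
Log2 intensity (y axis) of the 2 transcript variants of EXPB3 against days in darkness (x axis); points are single arrays (circles ein2/ore3, squares ahk3/ore12, triangles Col) and lines join means of 2 arrays. At 3 DAT variant 1 averaged 11.64 in ein2/ore3, 8.66 in ahk3/ore12 and 5.78 in Col, and variant 2 averaged 11.21, 9.07 and 8.66 in the same order.

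The expansin-like genes rose in ein2/ore3 within the first day of darkness, and in ahk3/ore12 none of them passed the limma test on any day. In ein2/ore3, all 3 rose at 1 DAT and at 2 DAT and 2 of 3 at 3 DAT, beside 13.9%, 14.6% and 17.8% of all genes called higher on those days. In ahk3/ore12 the counts were 0 of 3 on each day, beside 13.6%, 17.9% and 20.4%. At an unadjusted p under 0.05 they were 2 of 3 at 1 DAT and 0 at 2 and 3 DAT, with no share of all genes given at that threshold. In a fit of the 8 ahk3/ore12 arrays alone, EXLA2 passed at 1 DAT (0.65, adjusted p = 0.0155). In Col, 2 of 3 rose at 1 DAT, 1 of 3 at 2 DAT and 3 of 3 at 3 DAT, beside 13.3%, 16.7% and 20.2%. EXLA1 and EXLA3 are neighbours on chromosome 3, with no protein-coding gene between them in the TAIR10.1 reference, and EXLA2 lies on chromosome 4.

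EXLA1 was raised in ein2/ore3 from 1 DAT on, and its arrays overlapped with those of Col only at 3 DAT. In ein2/ore3 its log2 levels were 10.87 and 10.89 at 0 DAT, 12.52 and 12.29 at 1 DAT, 12.31 and 12.23 at 2 DAT, and 12.27 and 12.18 at 3 DAT. The ahk3/ore12 arrays gave 10.46 and 10.89, 11.26 and 10.97, 10.77 and 11.16, and 10.86 and 10.91. The Col arrays gave 10.31 and 10.66, 11.01 and 11.30, 11.28 and 10.92, and 12.10 and 12.26. The ein2/ore3 arrays were above all others at 1 and 2 DAT, the Col arrays joined them at 3 DAT, and the ahk3/ore12 arrays never exceeded 11.26. The log2 change at 3 DAT was 1.34 in ein2/ore3 (adjusted p = 3.7e-05), 0.21 in ahk3/ore12 (adjusted p = 0.421) and 1.70 in Col (adjusted p = 2.2e-06; SE 0.186 each). The smaller Col rises at 1 and 2 DAT, 0.67 and 0.62, did not pass in a fit of the Col arrays alone (adjusted p = 0.0675 and 0.0718), nor without Col 0 DAT replicate 1 (adjusted p = 0.145 and 0.179). On the slides of replicates 1 and 2 the Col change at 2 DAT was 0.98 and 0.26.

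EXLA2, whose loss has been reported to make plants more resistant to the grey mould Botrytis, gave a pulse in ein2/ore3. Its ein2/ore3 log2 levels were 6.28 and 6.49 at 0 DAT, 9.70 and 9.26 at 1 DAT, 7.74 and 8.41 at 2 DAT, and 7.30 and 6.70 at 3 DAT. Its ahk3/ore12 levels were 5.77 and 5.98, 6.65 and 6.40, 6.24 and 6.40, and 5.97 and 5.80, and its Col levels were 5.81 and 6.10, 7.23 and 6.36, 6.56 and 6.80, and 6.64 and 6.75. Only the ein2/ore3 arrays at 1 and 2 DAT stood above all arrays of the other genotypes from any day. Within a day, the ein2/ore3 arrays were also above those of both other genotypes at 0 DAT, and both ahk3/ore12 arrays were below all others at 3 DAT. EXLA2 was 8.50-fold higher at 1 DAT than at 0 DAT in ein2/ore3 (log2 change 3.09 ± 0.279 SE, adjusted p = 1.1e-06), and the change was 1.69 at 2 DAT and 0.61 at 3 DAT (adjusted p = 0.119). The Col changes were 0.84 at 1 DAT (adjusted p = 0.0339), 0.72 at 2 DAT (adjusted p = 0.058) and 0.74 at 3 DAT (adjusted p = 0.0462). The calls at 1 and 3 DAT were lost under quantile normalization (adjusted p = 0.0839 and 0.148) and in 3 and 16 of 24 fits with 1 array left out (adjusted p up to 0.31 and 0.232), and the Col change at 1 DAT was 1.42 on the slide of replicate 1 and 0.26 on that of replicate 2. EXLA2 stood as low as the 8.5th percentile of an array, so its changes may be understated.

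EXLA3 moved least. Its log2 levels were 8.08 and 8.00, 8.91 and 8.82, 8.60 and 8.33, and 8.87 and 8.67 at 0, 1, 2 and 3 DAT in ein2/ore3. They were 7.83 and 8.20, 8.23 and 8.39, 8.03 and 8.34, and 8.09 and 8.25 in ahk3/ore12, and 7.81 and 8.09, 8.18 and 8.16, 8.16 and 8.14, and 8.40 and 8.38 in Col. The ein2/ore3 arrays at 1 and 3 DAT were above all arrays of the other genotypes. EXLA3 rose in ein2/ore3 by 0.82 at 1 DAT (adjusted p = 0.00073), 0.42 at 2 DAT (adjusted p = 0.0436) and 0.73 at 3 DAT (adjusted p = 0.00124; SE 0.149 each), of which the 2 DAT call was lost in 13 of 24 fits with 1 array left out (adjusted p = 0.0504 to 0.208), and its Col change at 3 DAT was 0.44 (adjusted p = 0.0275). That Col call was lost without Col 0 DAT replicate 1 (0.31, adjusted p = 0.236) and without either Col array of 3 DAT (adjusted p = 0.105 and 0.0841), and the change was 0.59 and 0.30 on the slides of replicates 1 and 2.

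**Figure D3:**
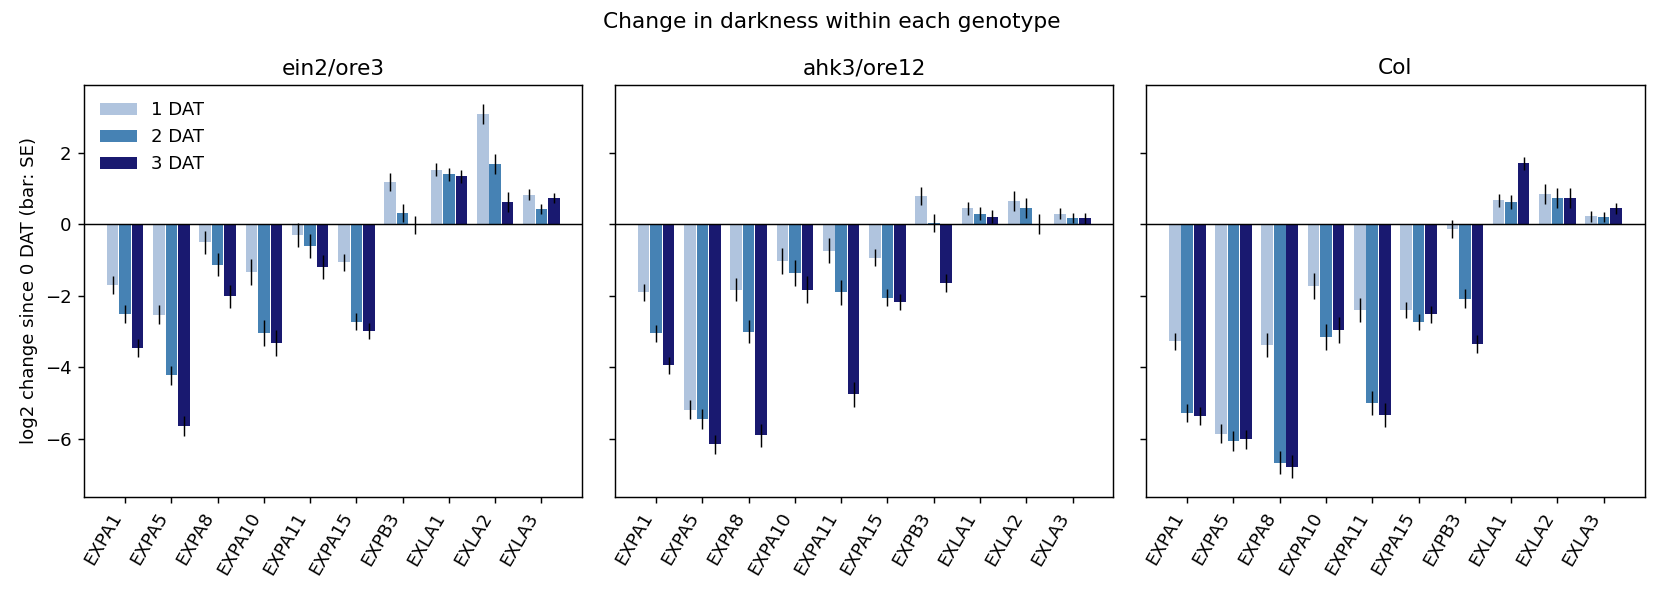
Log2 change since 0 DAT (y axis, bars from 0, error bars SE of the fit) at 1, 2 and 3 DAT for each of the 10 genes in ein2/ore3 (left), ahk3/ore12 (middle) and Col (right). All 6 α-expansins are below 0 at 3 DAT in each genotype, down to -6.78 for EXPA8 in Col, and EXLA2 reaches 3.09 at 1 DAT in ein2/ore3.

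Correlations of the members over the 12 condition means are given as a description, since these conditions share genotypes and days. Pairs of α-expansins correlated at r = 0.76 to 0.99 (15 pairs, median 0.89), and pairs of EXLA genes at 0.80 to 0.91 (3 pairs). Pairs of 1 EXLA and 1 α-expansin gene gave r = -0.44 to 0.23 over 18 pairs, of which 13 were negative. EXPB3 correlated with the α-expansins at 0.53 to 0.89 and with the EXLA genes at 0.16 to 0.52.

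Before darkness the mutants and Col did not differ by the test in any of the 10 genes, and the share of all genes called was 0.288% for ein2/ore3 and 0.0245% for ahk3/ore12. The largest differences at 0 DAT were 0.85 for EXPA5 in ein2/ore3 (adjusted p = 0.425) and -0.64 for EXPB3 in ahk3/ore12 (adjusted p = 1). At an unadjusted p under 0.05, limma gave 3 of 10 in ein2/ore3 (EXPA5, EXPA15, EXLA1) and 2 of 10 in ahk3/ore12 (EXPA15, EXPB3). The shares above are for adjusted p, and no share of all genes is given for these unadjusted counts.

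In ein2/ore3 the set stood above Col in darkness. Fitted beside day over the 16 arrays of both genotypes, the ein2/ore3 term was positive and called for all 10 members, beside 10.7% of all genes called higher, with log2 differences of 0.37 (EXLA3) to 2.85 (EXPA8). At single days, 9 of 10 members were higher in ein2/ore3 at 1 DAT, 7 at 2 DAT and 5 at 3 DAT, beside 9.66%, 10.4% and 14.4% of all genes, and none was lower. At 1 DAT, EXPA5 was 18.1-fold higher (log2 difference 4.18 ± 0.272 SE, adjusted p = 3e-07), EXLA2 6.41-fold and EXPA15 3.91-fold, and EXPA10 missed the call (1.07, adjusted p = 0.0727). At 3 DAT, EXPA8 was 20.0-fold higher (4.32), EXPA11 16.0-fold (4.00), EXPB3 12.1-fold (3.60), EXPA1 3.00-fold (1.59) and EXPA5 2.33-fold (1.22), whereas the 3 EXLA differences had shrunk to 0.04 (EXLA1), 0.30 (EXLA2) and 0.38 (EXLA3) without a call. The EXPA5 call at 3 DAT was lost without ein2/ore3 3 DAT replicate 1 (adjusted p = 0.0638), and that of EXLA3 at 1 DAT without ein2/ore3 1 DAT replicate 1 (adjusted p = 0.0583). The EXPA1 difference at 3 DAT was 2.13 on the slide of replicate 1 and 1.04 on that of replicate 2.

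In ahk3/ore12, 5 members were called higher than in Col at 2 DAT, and at 3 DAT members were called in both directions. The genotype term called 1 of 10 members, EXPA1 (log2 difference 1.11 ± 0.234 SE, adjusted p = 0.0304), beside 5.15% of all genes called higher, and this call was lost without any 1 of the 8 arrays of 2 or 3 DAT in that fit. At single days, 1 of 10 was called at 1 DAT, 5 at 2 DAT and 4 at 3 DAT, beside 0.622%, 12.0% and 23.1% of all genes. The 1 DAT call was EXPA1 (1.22, adjusted p = 0.0316), lost without any 1 of the 4 ahk3/ore12 and Col arrays of that day (adjusted p = 0.0962 to 0.239), while 3 members were called without either ahk3/ore12 array of 2 DAT. The 5 at 2 DAT were all higher in ahk3/ore12: EXPA8 10.5-fold (3.39), EXPA11 6.98-fold (2.80), EXPA1 4.26-fold (2.09), EXPB3 2.76-fold (1.46) and EXPA10 2.44-fold (1.28, adjusted p = 0.0324). The EXPA10 call was lost without ahk3/ore12 2 DAT replicate 2 (adjusted p = 0.294) or either Col array of that day (0.151 and 0.121). On the slides of replicates 1 and 2 the 2 DAT difference was 1.84 and 3.76 for EXPA11, and 0.93 and 2.00 for EXPB3. At 3 DAT, EXPA1 (1.28) and EXPB3 (1.04) were higher, and EXLA1 (-1.30 ± 0.186 SE, adjusted p = 0.00015) and EXLA2 (-0.81, adjusted p = 0.0476) were lower. The EXLA2 call was lost under quantile normalization (adjusted p = 0.155) and in 18 of 24 fits with 1 array left out. The EXPB3 call was lost when the brighter variant of each array, here variant 2, replaced the sum (0.41, adjusted p = 0.258). Fewer members were called at 3 DAT without ahk3/ore12 3 DAT replicate 2.

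**Figure D4:**
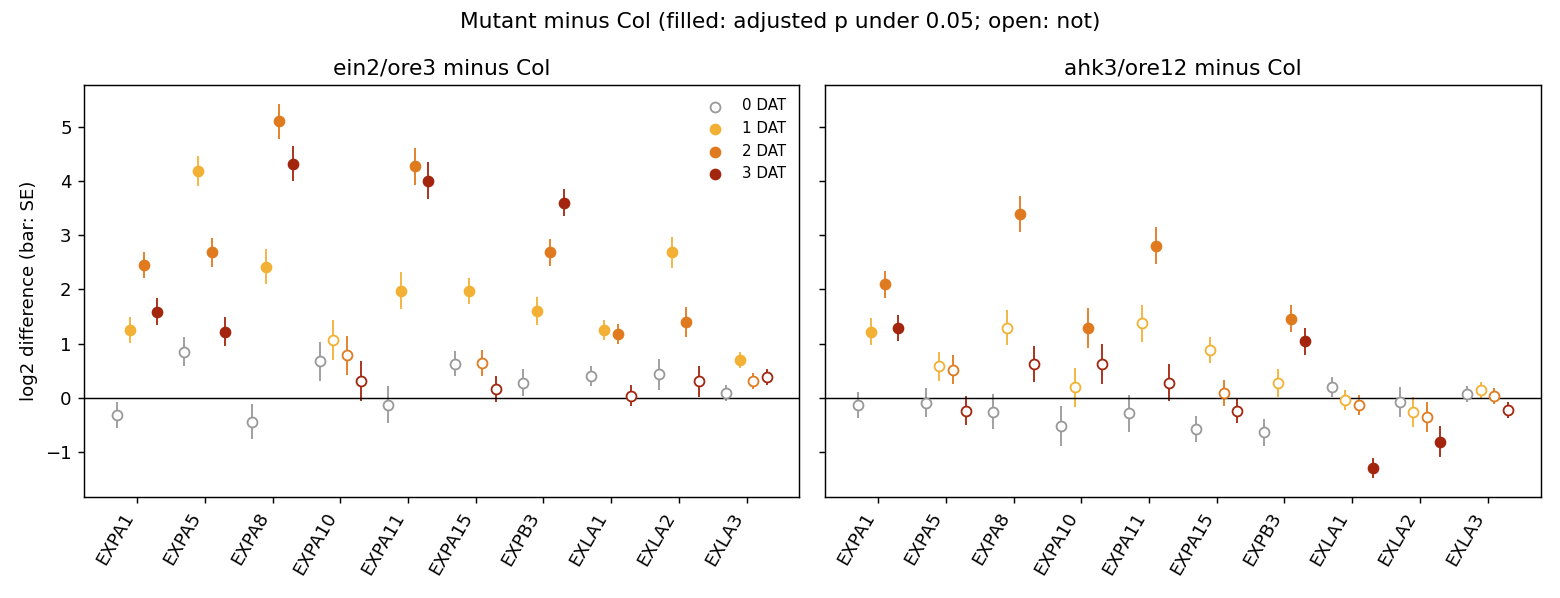
Log2 difference of each mutant minus Col (y axis, error bars SE of the fit) for the 10 genes at 0, 1, 2 and 3 DAT, with ein2/ore3 on the left and ahk3/ore12 on the right; filled points have an adjusted p under 0.05. EXPA8 and EXPA11 stay at 4.32 and 4.00 at 3 DAT in ein2/ore3, and in ahk3/ore12 they are 3.39 and 2.80 at 2 DAT and 0.62 and 0.28 at 3 DAT.

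The change since 0 DAT was then compared between genotypes directly, by an interaction term in the same fit. For ein2/ore3 against Col, 7 of 10 members differed at 1 DAT, 5 at 2 DAT and 4 at 3 DAT, beside 5.71%, 11.1% and 16.1% of all genes, each with the smaller fall or the larger rise in ein2/ore3. At 3 DAT these were EXPA8 (4.76 ± 0.461 SE, adjusted p = 1e-05), EXPA11 (4.13), EXPB3 (3.32) and EXPA1 (1.90), and the α-expansins EXPA5 (0.37), EXPA10 (-0.35) and EXPA15 (-0.47) did not pass. On the slides of replicates 1 and 2 the EXPA1 value was 2.49 and 1.32. EXPA5 differed at 1 DAT (3.33) and 2 DAT (1.83), EXPA15 at 1 DAT (1.33) with 0.00 at 2 DAT (adjusted p = 0.994), and EXPA10 was not called on any day. The count at 1 DAT was 3 without Col 0 DAT replicate 1, ein2/ore3 0 DAT replicate 2 or ein2/ore3 1 DAT replicate 2, and 4 without ein2/ore3 1 DAT replicate 1. EXPB3 was the least stable at 1 DAT (1.32, adjusted p = 0.0429), with its call lost in 16 of 24 fits with 1 array left out (adjusted p = 0.0503 to 0.209). For ahk3/ore12 against Col, 0 of 10 members differed at 1 DAT by adjusted p, beside 0.0429% of all genes. An unadjusted p under 0.05 was reached by 5 of 10 members (EXPA1, EXPA8, EXPA11, EXPA15 and EXPB3). The share of all genes at that unadjusted threshold is not given here, so 0.0429% is no background for this count. By adjusted p, 4 of 10 differed at 2 DAT beside 5.70% of all genes: EXPA8 (3.65), EXPA11 (3.10), EXPA1 (2.23) and EXPB3 (2.11). At 3 DAT, 3 of 10 differed beside 13.3%: EXPB3 (1.68), EXPA1 (1.42) and EXLA1, whose rise was smaller in ahk3/ore12 (-1.49 ± 0.263 SE, adjusted p = 0.00185). The EXPB3 call at 3 DAT was lost when the brighter variant of each array replaced the sum (1.09, adjusted p = 0.0585). In ahk3/ore12 and Col that was variant 1 at 0 DAT and variant 2 at 3 DAT, so this value mixes the variants. Alone, variant 1 changed by -2.04 in ahk3/ore12 and -5.60 in Col, and variant 2 by -1.30 and -2.31. The EXPA1 call was lost in 4 of 24 fits with 1 array left out. Those were the fits without Col 0 DAT replicate 1, Col 3 DAT replicate 1 or replicate 2 of ahk3/ore12 at 0 or 3 DAT.

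The mutants also differed from each other, in a contrast added after the values had been seen. The change in ein2/ore3 minus that in ahk3/ore12 was called for 3 of 10 members at 1 DAT, 2 at 2 DAT and 4 at 3 DAT, beside 3.23%, 4.12% and 5.02% of all genes. At 1 DAT these were EXPA5 (2.66, adjusted p = 0.00182), EXLA2 (2.44, adjusted p = 0.00385) and EXLA1 (1.08, adjusted p = 0.0371), and at 2 DAT EXPA8 (1.89, adjusted p = 0.0344) and EXLA1 (1.10, adjusted p = 0.0307). At 3 DAT they were EXPA8 (3.89 ± 0.461 SE, adjusted p = 3.8e-04), EXPA11 (3.56, adjusted p = 0.00101), EXPB3 (1.63, adjusted p = 0.0164) and EXLA1 (1.13, adjusted p = 0.0223). The EXLA1 calls at 1, 2 and 3 DAT were lost in 9, 5 and 7 of 24 fits with 1 array left out, that of EXPA8 at 2 DAT in 5 and that of EXPB3 at 3 DAT in 4. The count at 2 DAT ranged over such fits from 0, without ahk3/ore12 2 DAT replicate 1, ahk3/ore12 0 DAT replicate 2 or ein2/ore3 0 DAT replicate 2, to 4 without either Col array of 1 DAT, and at 3 DAT it was 2 without replicate 1 of either mutant at 3 DAT or replicate 2 of either at 0 DAT. EXPA1 did not pass on any day (0.21, 0.54 and 0.48 at 1, 2 and 3 DAT).

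Among the 26 other expansin family genes on the array, 5 fell and 4 rose at 3 DAT in ein2/ore3, 5 fell and 2 rose in ahk3/ore12, and 7 fell and 3 rose in Col, beside 14.6%, 13.9% and 19.3% of all genes called lower and 17.8%, 20.4% and 20.2% called higher in that order of genotypes, and the median change of the 26 was 0.00 in ein2/ore3, -0.22 in ahk3/ore12 and 0.14 in Col. EXPA6 changed by -2.90 in ein2/ore3, -3.51 in ahk3/ore12 and -5.58 in Col, EXPB1 by -2.0, -2.64 and -2.98 in the same order of genotypes, and EXPA9 by -3.15, -2.28 and -3.03. EXPA3 changed by -0.89 in ein2/ore3 (adjusted p = 0.056), -1.66 in ahk3/ore12 and -2.92 in Col. EXPA4 rose by 1.11 in ein2/ore3, where Col fell by 1.33 (interaction 2.44 ± 0.26 SE), and EXPA16 likewise rose by 1.67 in ein2/ore3 where Col fell by 1.70 (interaction 3.37). EXPA13 changed by -0.84 in ein2/ore3, -0.12 in ahk3/ore12 (adjusted p = 0.65) and -1.34 in Col, and EXPA20 by 0.82, 1.08 and 0.55.

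EXLB1, the single member of expansin-like family B, had the largest rise of the family at 3 DAT in ahk3/ore12 and in Col, but not in ein2/ore3, where EXPA16 (1.67) and EXLA1 (1.34) rose more. At 3 DAT it had risen by 1.14 in ein2/ore3, 3.13 in ahk3/ore12 and 4.23 in Col (SE 0.234 each), and its rise was smaller in ein2/ore3 than in Col (interaction -3.09 ± 0.33 SE, adjusted p = 2.3e-05). It was already 3.15-fold higher in ein2/ore3 than in Col at 0 DAT (adjusted p = 0.00499). EXPA14 fell on the first day in all genotypes, by 2.34 in ein2/ore3, 2.49 in ahk3/ore12 and 2.54 in Col. At 3 DAT it was still down by 2.82 in ein2/ore3 and 2.32 in ahk3/ore12, while the Col change was 0.11 (adjusted p = 0.789), and both interactions were called (-2.94 for ein2/ore3 and -2.43 for ahk3/ore12).

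**Figure D5:**
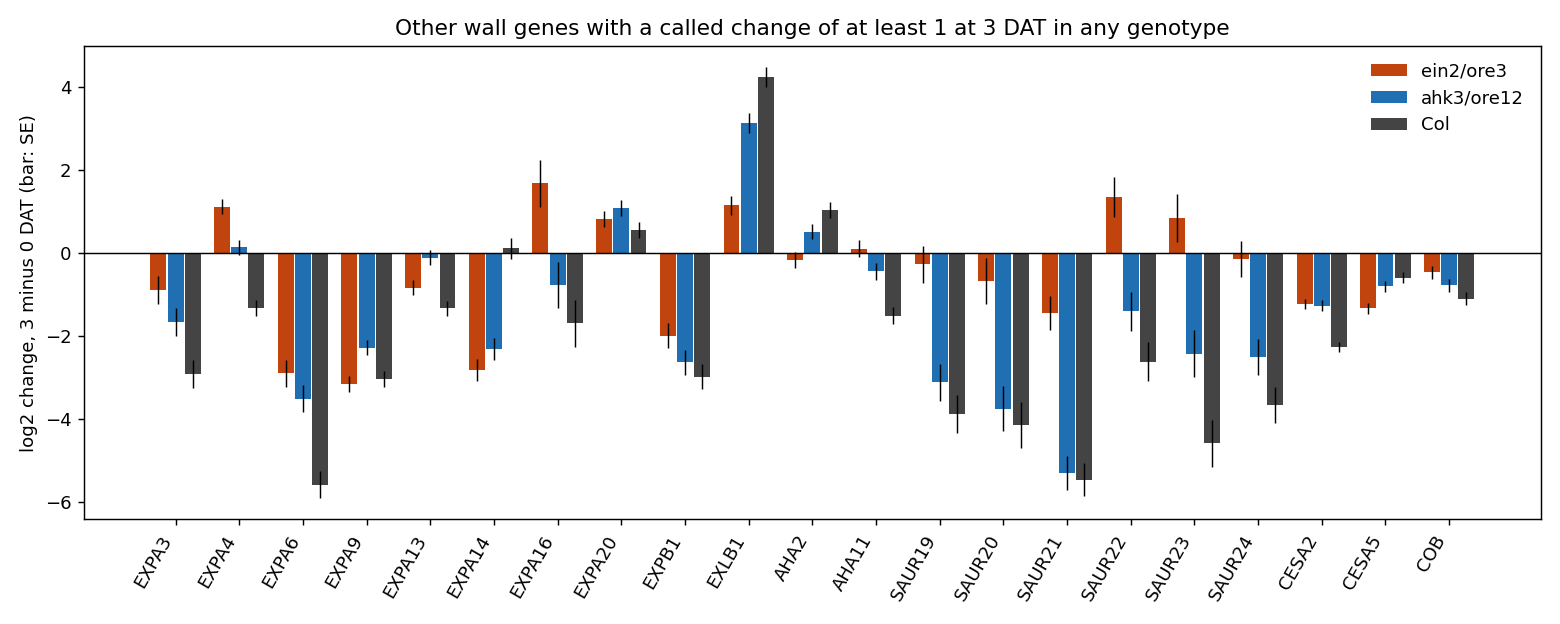
Log2 change at 3 DAT against 0 DAT (y axis, bars from 0, error bars SE of the fit) of other expansin, acid growth and cellulose genes, in ein2/ore3 (left bar), ahk3/ore12 (middle bar) and Col (right bar). The 6 SAUR genes fell by 2.62 to 5.46 in Col, and EXLB1 rose by 4.23 in Col.

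Of 10 genes of acid growth, 1 fell and 1 rose at 3 DAT in ein2/ore3, 6 fell and 2 rose in ahk3/ore12, and 7 fell and 1 rose in Col, beside 14.6%, 13.9% and 19.3% of all genes called lower and 17.8%, 20.4% and 20.2% called higher. The SAUR19 subfamily, small proteins that keep plasma membrane proton pumps active and so promote cell expansion, accounted for 6 of the 7 in Col, where SAUR22 fell by 2.62 and SAUR21 by 5.46, with SAUR19, SAUR20, SAUR23 and SAUR24 between them. All 6 were higher in ein2/ore3 than in Col at 3 DAT, by 3.53 (SAUR19) to 5.41 (SAUR23), and in ahk3/ore12 the call was made only for SAUR23 (1.66, adjusted p = 0.0474). These 6 genes are near-identical copies in 1 cluster, so their probes may read each other's transcripts. The proton pump gene AHA11 changed by 0.10 in ein2/ore3 (adjusted p = 0.778), -0.44 in ahk3/ore12 (adjusted p = 0.12) and -1.52 in Col, and AHA2 by -0.17 (adjusted p = 0.569), 0.51 and 1.03. Of 8 genes of primary wall cellulose synthesis, 4 fell in ein2/ore3, 3 in ahk3/ore12 and 5 in Col at 3 DAT and none rose, against the same shares of all genes. CESA2, a cellulose synthase subunit, fell by 1.23 in ein2/ore3, 1.27 in ahk3/ore12 and 2.27 in Col, CESA5 by 1.34, 0.81 and 0.60, and COB, which orients cell expansion, by 0.47, 0.78 and 1.10.

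Outside the family, the genes whose pattern over the 12 condition means was most like that of EXPA5, the α-expansin of widest range, were CLE42 (r = 0.995), which encodes a CLE signal peptide, UGP3 (r = 0.994), which acts in sulpholipid synthesis in plastids, and AT1G54820 (r = 0.992). Those most like EXLA2 were AT4G37409 (r = 0.968), GATA20 (r = 0.967) and HSD5 (r = 0.963). CLE42 stood at 7.15 at 3 DAT and 9.14 at 0 DAT in Col, and GATA20 at 9.14 at 3 DAT and 9.03 at 0 DAT. These are the top 3 of all other genes on the array for each, so high values are fixed by the choice.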

How the data were processed

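The authors hybridised Cy3-labelled cDNA of each sample to 1 NimbleGen 12-plex expression array built on TAIR9 and processed the scans with NimbleScan v2.5 by RMA (background correction, quantile normalization and summary over the probes of a transcript). The deposited intensity values per transcript variant (37118 variants, 1 to 4 probes each) were summed per gene and put on the log2 scale here; the deposited log2 table per gene differed from these sums by at most 0.00514 and served as an alternative. Gene names came from RefSeq (TAIR10.1), which held 31993 of 32627 loci, and 29025 genes had 1 variant. The deposited standard-error column was not used, and no detection filter was applied.

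Tests used R 4.3.3 and limma 3.58.1: a moderated F-test over the days in the 8 Col arrays (adjusted p under 0.01), a genotype term beside day for each mutant and Col (16 arrays, adjusted p under 0.05), and contrasts of 12 group means over 24 arrays (adjusted p under 0.05, all genes). The code was tested on simulated data. The study had 2 biological replicates per condition. The 12 arrays with a given replicate number shared an image number in the file headers. A shared slide was inferred from this, and the sample labels do not name slides. Differences were therefore also computed within each replicate number, called a slide here. Same-numbered samples deviated together in 47 of 66 pairs of conditions (correlation over 0.1, median 0.302), not in all.

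The 10 members and the lists of wall and marker genes were chosen with earlier results of these data known, and the contrast between the mutants was added after the values were seen. Named genes were all members, other listed wall genes called with a log2 change of at least 1 in size at 3 DAT in any genotype, and the 3 genes most correlated with the α-expansin and the EXLA gene of widest range. Alternatives were the deposited gene table, slide as a replicate block, median centring, quantile normalization, a filter on the dimmest 25% of genes, the brightest variant of each array in place of the sum, other thresholds, fits of fewer arrays, the methods' test without moderation, and each array left out. A planned search of promoter letters and the printing of sequences were not run, since no sequence was used here.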

Additional observations from a re-analysis of the deposited data

Results flagged for a closer look

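The change since 0 DAT differed from that in Col by the interaction test (limma, adjusted p under 0.05) for 23 combinations of member, mutant and day. These are log2 differences, with a positive value where the mutant fell less or rose more. For ein2/ore3 at 1 DAT they were EXPA1 1.57, EXPA5 3.33, EXPA8 2.86, EXPA11 2.1, EXPA15 1.33, EXPB3 1.32 and EXLA2 2.25. For ein2/ore3 at 2 DAT they were EXPA1 2.77, EXPA5 1.83, EXPA8 5.54, EXPA11 4.39 and EXPB3 2.40, and at 3 DAT EXPA1 1.90, EXPA8 4.76, EXPA11 4.13 and EXPB3 3.32. For ahk3/ore12 at 2 DAT they were EXPA1 2.23, EXPA8 3.65, EXPA11 3.10 and EXPB3 2.11, and at 3 DAT EXPA1 1.42, EXPB3 1.68 and EXLA1 -1.49. EXLA1 at 3 DAT was the one negative value. With 2 arrays in each condition, no condition was large enough for a test of single outlying arrays.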

How the results depend on the processing

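No member result that was called, in the reported fit or in the alternative, changed direction under any alternative that was run, while differences near 0 that were not called did change sign. Of 230 member results at single days, 192 kept their side of the threshold in every alternative, 23 lost a call in at least 1 and 15 gained one. These 230 are changes since 0 DAT, differences from Col and interactions, and the contrast between the mutants is not among them. Counts of members called over the time course, for the genotype terms and at 3 DAT moved by over 1.5 times in the following cases. In the time course of Col, 5 members were called with the methods' test without moderation, which lost EXPA10, EXPA15 and EXLA1 (adjusted p = 0.028, 0.0257 and 0.0333), and 5 to 8 with 1 array left out, the 5 arising when either Col array of 0 DAT was dropped. For the ein2/ore3 term, 6 were called at an adjusted p under 0.01. For the ahk3/ore12 term, 0 were called at that threshold, 2 without the dimmest 25% of genes, and 0 to 4 with 1 array left out (4 when Col 0 DAT replicate 1 was dropped, 2 when either ahk3/ore12 0 DAT replicate 2 or Col 1 DAT replicate 2 was). The single-array range was 2 to 4 for ahk3/ore12 against Col at 3 DAT, 4 to 5 for ein2/ore3 against Col, and 8 to 10 for the Col change at 3 DAT. With replicate number as a replicate block, no count of members moved by that much and 1 single call was gained (EXPA10, ahk3/ore12 interaction at 2 DAT, 1.81, adjusted p = 0.0477). All 131 called member differences had the same direction on both slides. Each is the mean of its 2 slide values and was picked by its call, so a shared direction was likely beforehand. At 1 DAT the ein2/ore3 interaction count was 7 with all arrays and 3 or 4 when any 1 of the 4 arrays named above was dropped, and the ahk3/ore12 count against Col was 1 with all arrays and 0 to 3 with 1 left out. Between the mutants the count at 2 DAT was 2 with all arrays and 0 to 4 with 1 left out, and at 3 DAT it was 4 with all arrays and as low as 2. EXPB3 in the ahk3/ore12 interaction at 3 DAT (1.68, adjusted p = 0.00612) was not called when the brighter variant of each array replaced the sum (1.09, adjusted p = 0.0585). Median centring gave a median over all genes of 0.00 in the ein2/ore3 change at 2 DAT, against -0.13 on the scale as deposited, and 59.9% of calls higher, against 47.6%. EXLA1 in the ein2/ore3 interaction at 2 DAT passed with centring (0.89, adjusted p = 0.0377). Where not named, the cause of a change was not tested. Dim values at the lower end of EXPA5, EXPA8, EXPA10, EXLA2 and variant 1 of EXPB3 limit the sizes of their changes, and with 2 arrays per condition small differences could not be called.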
